A study of Homo sapiens with 12 samples.

Results

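The proteasome is the protease complex that degrades proteins tagged with ubiquitin. Its genes were taken as every probe set whose gene symbol opens with PSMA to PSMG and a digit, or is POMP, with the recombination factor gene PSMC3IP left out. That rule names 97 of the 54675 probe sets on the array. Of these, 14 belong to 7 antisense, divergent or interacting-protein genes that only share the stem (such as PSMA3-AS1 and PSME3IP1) and were set apart, which leaves 83 probe sets of 43 proteasome genes. A further 5 probe sets listed for a proteasome gene together with another gene were left out, so PSMA6 and PSME2 have no value. PSMC5, PSMD7, PSMD13 and PSMB11 were not analysed here.

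The arrays measured total RNA of 22Rv1 cells, a long-established line of human prostate carcinoma that expresses the androgen receptor, after treatment with a small-molecule inhibitor aimed at the transcription factor ONECUT2. There were 4 groups of 3 arrays: vehicle, and the inhibitor for 4 h, 6 h or 16 h, all in RPMI medium with serum. The labels give no dose, no vehicle compound and no time for the vehicle arrays, and a code carried by the titles of the other 9 arrays is missing from those at 16 h. The compound, the time in culture and the handling of the 16 h arrays therefore cannot be told apart in the comparison with vehicle. No label says that the 3 arrays of a group came from separate cultures, so the p-values rest on a spread that may be technical.

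The 20S core of the proteasome is a stack of rings, with outer alpha rings that gate the channel and inner beta rings that carry the catalytic sites. The 19S particle caps the core: it binds ubiquitin chains, removes them and unfolds the substrate with a ring of ATPases. Other activators, encoded by PSME genes, can take the place of the 19S cap, and dedicated chaperones such as POMP and the PSMG proteins help the rings to assemble. When proteasome activity is low, the transcription factor NFE2L1 is known to raise the transcription of the subunit genes through antioxidant response elements in their promoters.

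Because subunit genes are known to share these elements, their promoters were searched for the core letters TGACNNNGC on both strands, in the 250 bases before and the 50 bases after each start site (RefSeq, GRCh38.p14). The first 4 letters are shared with AP-1 and cyclic AMP response elements. Of the 43 genes, 37 had a promoter in the table, and 13 of these (35.1%) held the letters, against 4384 of 27305 genes (16.1%) in the whole table. The promoters below belong to genes that changed at 16 h on their brightest probe set, with the matching letters in capitals. PSMD12 (chr17:67366528-67366827, minus strand), PSME4 (chr2:53970944-53971243, minus strand) and PSMG1 (chr21:39183402-39183701, minus strand) rose on that probe set, although another of PSME4 fell, and PSME1 (chr14:24135944-24136243, plus strand) fell. The match starts at position -165 from the start site in PSMD12, -34 in PSME4 (on the opposite strand), -183 in PSMG1 and -86 in PSME1.

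PSMD12: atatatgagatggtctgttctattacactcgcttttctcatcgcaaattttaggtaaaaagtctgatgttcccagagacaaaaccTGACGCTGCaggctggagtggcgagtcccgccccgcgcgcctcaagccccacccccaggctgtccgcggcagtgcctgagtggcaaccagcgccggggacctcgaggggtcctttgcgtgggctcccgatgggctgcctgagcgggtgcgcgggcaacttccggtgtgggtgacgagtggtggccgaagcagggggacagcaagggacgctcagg
PSME4: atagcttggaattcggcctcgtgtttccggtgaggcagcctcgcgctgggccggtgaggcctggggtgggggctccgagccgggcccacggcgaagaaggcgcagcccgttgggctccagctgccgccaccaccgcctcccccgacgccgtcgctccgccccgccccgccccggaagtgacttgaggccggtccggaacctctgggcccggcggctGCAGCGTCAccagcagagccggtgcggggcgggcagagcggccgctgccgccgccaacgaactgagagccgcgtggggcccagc
PSMG1: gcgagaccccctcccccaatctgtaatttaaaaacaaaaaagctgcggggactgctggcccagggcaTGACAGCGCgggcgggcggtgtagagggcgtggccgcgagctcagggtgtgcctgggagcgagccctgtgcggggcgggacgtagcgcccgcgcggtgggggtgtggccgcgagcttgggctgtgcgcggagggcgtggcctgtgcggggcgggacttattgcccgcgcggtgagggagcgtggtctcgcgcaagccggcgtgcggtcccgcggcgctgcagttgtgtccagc
PSME1: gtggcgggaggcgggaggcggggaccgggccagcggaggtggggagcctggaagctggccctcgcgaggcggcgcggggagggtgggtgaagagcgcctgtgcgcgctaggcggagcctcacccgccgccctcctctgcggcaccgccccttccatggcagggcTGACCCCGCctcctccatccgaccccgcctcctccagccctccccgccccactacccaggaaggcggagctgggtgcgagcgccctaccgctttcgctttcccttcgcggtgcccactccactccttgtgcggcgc

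With genes sorted by their brightest probe set, the letters were no more frequent in promoters of genes that rose than in the others. They stood in 3 of 11 promoters of genes that rose at 16 h (27.3%), in 1 of 4 of those that fell and in 8 of 19 of those tested and not called (42.1%). Only 11 of the 15 genes that rose had a promoter in the table, with PSMB1 and PSMD4 among those without. Promoters were present for 4 of 4 genes that fell and 19 of 21 not called. The core of an interferon response element, GAAA followed after any 2 bases by GAAA, was searched in the same way and stood in 6 of 37 proteasome promoters (16.2%) against 4.38% of the whole table; the 6 were PSMA4, PSMB4, PSMB8, PSMB10, PSME1 and PSMG4. CCAAT stood in 17 of 37 (45.9%) against 39.7%. A match describes the letters in this window and is no evidence that a factor binds there.

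Values are log2 signals. A gene was represented by its brightest probe set, and 12635 genes whose mean reached the median of all probe sets (2.11) were tested with limma, with p-values adjusted by Benjamini-Hochberg over all of them and a call at an adjusted p below 0.05. Of the 43 proteasome genes, 40 were tested. The 3 that were not are PSMA8, the alpha subunit of testis, and PSMB8 and PSMB9, catalytic subunits of the immunoproteasome. PSMA8 (1.26 to 2.02) and PSMB8 (0.81 to 1.18) were at or below the highest bacterial control probe set on all 12 arrays, and PSMB9 (1.81 to 2.41) on 6 of 12. The array medians lay between 2.1 and 2.15.

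The 16 h arrays stood apart from the others across the whole array. There, 42.8% of all tested genes were called against vehicle, 26% risen and 16.8% fallen. The 5′ control probe set of ACTB was lower by 1.38 log2 units and its 3′ minus 5′ difference was 4.09 ± 0.09 (SD, n = 3) against 2.80 ± 0.07 in vehicle, while that of GAPDH was -0.43 against -0.46. The 18S ribosomal RNA control signal was 12.51 ± 0.08 against 10.87 ± 0.35 in vehicle. For the ACTB and 18S differences the exact two-sided permutation test gave p = 0.1, the smallest value that 3 against 3 arrays allow. All 8 analysed markers of 22Rv1 and prostate epithelium were above the bacterial controls, with summed linear signals of 5288 to 5463 in vehicle and 5229 to 5510 at 16 h. Within that sum 4 of the 8 fell at 16 h, namely SLC45A3 (-2.89), KLK2 (-1.30), HOXB13 (-1.06) and FOXA1 (-0.25), and KRT18 rose (0.20). Of the 6 fibroblast markers, COL1A2 and PDGFRB were at or below the controls on all arrays, and the sum was 49 to 60 in vehicle and 99 to 133 at 16 h, with COL1A1 (2.05) and LUM (1.25) risen and DCN (-0.58) and COL3A1 (-0.37) fallen. The leukocyte sum (4 markers, CD14 at or below the controls) was 14 to 15 in vehicle and 12 to 15 at 16 h, and the endothelial sum (5 markers, VWF, CDH5 and KDR at or below) was 17 to 19 and 17 to 18. The part of RNA quality, ribosomal signal or other cell types in the proteasome values at 16 h was not tested. In bulk RNA, fewer cells of a type and less RNA per cell cannot be told apart.

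At 4 h and 6 h no proteasome gene passed the test. At 4 h, limma called 0 of 40 risen and 0 fallen (0.459% of all tested genes were called). Of the 40, 3 had an unadjusted p below 0.05, against 1366 of all 12635 genes. The changes of the 40 ran from -0.37 to 0.16 with a median of -0.02. The 3 were PSMB10, the inducible catalytic subunit (-0.37, adjusted p = 0.41, limma), PSMA5 of the alpha ring (-0.18, adjusted p = 0.33, limma) and the activator gene PSME4 (0.16, adjusted p = 0.40, limma). At 6 h, limma again called 0 risen and 0 fallen (0.0317% of all genes). Of the 40, 0 had an unadjusted p below 0.05, against 1039 of all 12635 genes. The changes of the 40 ran from -0.19 to 0.20 with a median of 0.05, against 0.01 over all genes. Above 0 were 34 of the 40, against 6920 of all 12635 genes. In 9 of 40 genes (22.5%) all 3 arrays at 6 h lay above all 3 vehicle arrays, against 8.25% of all genes, and in 0 all lay below, against 6.14% of all genes. These shifts were small. The 18S control signal was also lower than in vehicle at 4 h (10.28 ± 0.15, a difference of -0.59) and at 6 h (9.86 ± 0.15, a difference of -1.01), each with the smallest exact permutation p of 0.1, and its part in the shifts was not tested. In addition, the comparisons of the 3 treatment times share the same vehicle arrays.

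At 16 h the proteasome genes split. Of 40, 15 rose (37.5%, against 26% of all genes) and 4 fell (10%, against 16.8%). An unadjusted limma p below 0.05 was seen in 25 of the 40, against 6332 of all 12635 genes. The median change was 0.15, against 0.05 over all genes, with a range from -0.96 to 0.76. Most of these changes were small. On their brightest probe sets 4 genes, PSME4, PSMD12, PSMD4 and PSME3, changed by at least 0.5 log2 units. The other 15 called genes changed by less. In 23 of 40 genes (57.5%, against 30.5% of all) every 16 h array lay above the vehicle arrays, and in 6 (15%, against 20.9%) every one lay below. The mean log2 signal over the 40 genes was 9.60 ± 0.01 (SD, n = 3) in vehicle, 9.58 ± 0.04 after 4 h, 9.65 ± 0.03 after 6 h and 9.71 ± 0.04 after 16 h. The share called, in either direction, was therefore close to that of the array as a whole (47.5% against 42.8%), with more of it upwards. Of the 7 genes that only share the stem, 3 were tested and 0 were called at 16 h by limma, with 0 at an unadjusted p below 0.05. This holds for their brightest probe sets. In a fit over probe sets, 222460_s_at of PSME3IP1 fell at 16 h (-0.36 ± 0.13, adjusted p = 0.041, limma).

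**Figure D1:**
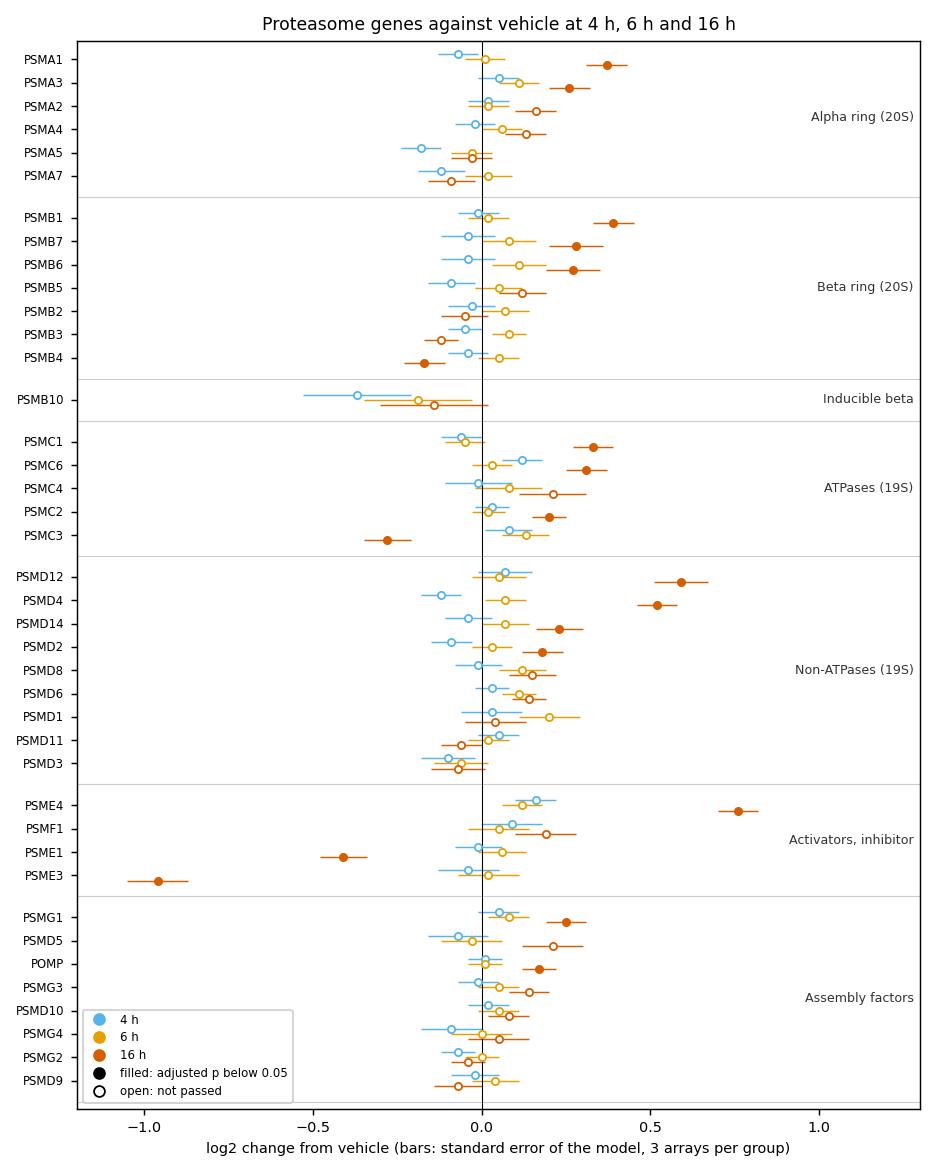
Log2 change from vehicle (x axis) of each of the 40 tested proteasome genes (y axis, grouped by role) at 4 h, 6 h and 16 h; bars are the standard error of the model with 3 arrays per group, and filled points passed the test. No point is filled at 4 h or 6 h, and 19 are filled at 16 h, with PSME4 at 0.76 and PSME3 at -0.96 as the outermost.

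In the alpha ring, which forms the gate of the core, 2 of 6 tested genes rose at 16 h (33.3%, against 26% of all genes) and 0 fell, with a median change of 0.14. This share is near that of the whole array. PSMA1 gave 10.88, 10.95 and 10.95 on the vehicle arrays, 10.82, 10.90 and 10.85 at 4 h, 10.89, 10.98 and 10.94 at 6 h, and 11.30, 11.34 and 11.24 at 16 h. Those at 16 h were the 3 highest and overlapped with no other group. The rise was 0.37 ± 0.06 (SE; 1.29-fold; adjusted p = 0.00034, limma). PSMA3 gave 10.70, 10.67 and 10.73 in vehicle and 10.90, 10.97 and 11.01 at 16 h, a rise of 0.26 ± 0.06 (adjusted p = 0.003, limma), also without overlap. PSMA2 (0.16), PSMA4 (0.13), PSMA5 (-0.03) and PSMA7 (-0.09) did not pass.

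In the constitutive beta ring, 3 of 7 genes rose and 1 fell (57.1% called, against 42.8% of all genes), with a median of 0.12. PSMB1, a structural subunit with no active site, gave 11.33, 11.42 and 11.45 in vehicle, 11.37, 11.37 and 11.41 at 4 h, 11.46, 11.37 and 11.43 at 6 h, and 11.81, 11.80 and 11.74 at 16 h. All 16 h arrays were higher than the other 9, and the rise was 0.39 ± 0.06 (1.31-fold; adjusted p = 0.00023, limma). PSMB4, another structural subunit, gave 11.40, 11.30 and 11.27 in vehicle, 11.28, 11.25 and 11.32 at 4 h, 11.38, 11.39 and 11.36 at 6 h, and 11.17, 11.06 and 11.22 at 16 h. At 16 h the arrays were the 3 lowest. The fall was only just past the threshold (-0.17 ± 0.06; adjusted p = 0.044, limma), and the call was lost in 9 of 17 alternatives, among them those without vehicle array 1 (-0.13), vehicle array 2 (-0.18), 16 h array 1 (-0.18) or 16 h array 2 (-0.12).

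The 3 catalytic subunits of the constitutive ring did not move alike in their calls. PSMB6, with caspase-like activity, rose by 0.27 ± 0.08 (adjusted p = 0.015, limma), and PSMB7, with trypsin-like activity, by 0.28 ± 0.08 (adjusted p = 0.013, limma). PSMB6 lost its call without vehicle array 2 (0.23), and PSMB7 without 16 h array 2 (0.23) and as the mean of its probe sets (0.17, adjusted p = 0.12). PSMB5, the chymotrypsin-like subunit that proteasome inhibitors such as bortezomib bind, gave 9.59, 9.52 and 9.48 in vehicle, 9.38, 9.41 and 9.52 at 4 h, 9.54, 9.62 and 9.59 at 6 h, and 9.56, 9.71 and 9.68 at 16 h. Its 16 h arrays overlapped with vehicle, and the change of 0.12 ± 0.07 did not pass (adjusted p = 0.16, limma). The differences between these 3 subunits were not tested.

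PSMB10, which replaces PSMB7 in the immunoproteasome, was the one inducible catalytic subunit above the filter. It gave 4.78, 4.51 and 4.54 in vehicle, 3.91, 4.30 and 4.50 at 4 h, 4.11, 4.52 and 4.62 at 6 h, and 4.36, 4.55 and 4.50 at 16 h. The 4 h arrays lay below all vehicle arrays, and the groups overlapped at 6 h and 16 h. The change at 16 h was -0.14 ± 0.16 (adjusted p = 0.51, limma). PSMB8, which replaces PSMB5, gave 0.88, 0.98 and 1.08 in vehicle and 1.11, 1.18 and 1.17 at 16 h, all at the level of control probe sets. PSMB9, which replaces PSMB6, gave 1.81, 1.90 and 1.93 in vehicle and 2.02, 2.15 and 2.41 at 16 h, close to the bacterial controls. At these signals no change in PSMB8 or PSMB9 was measurable.

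**Figure D2:**
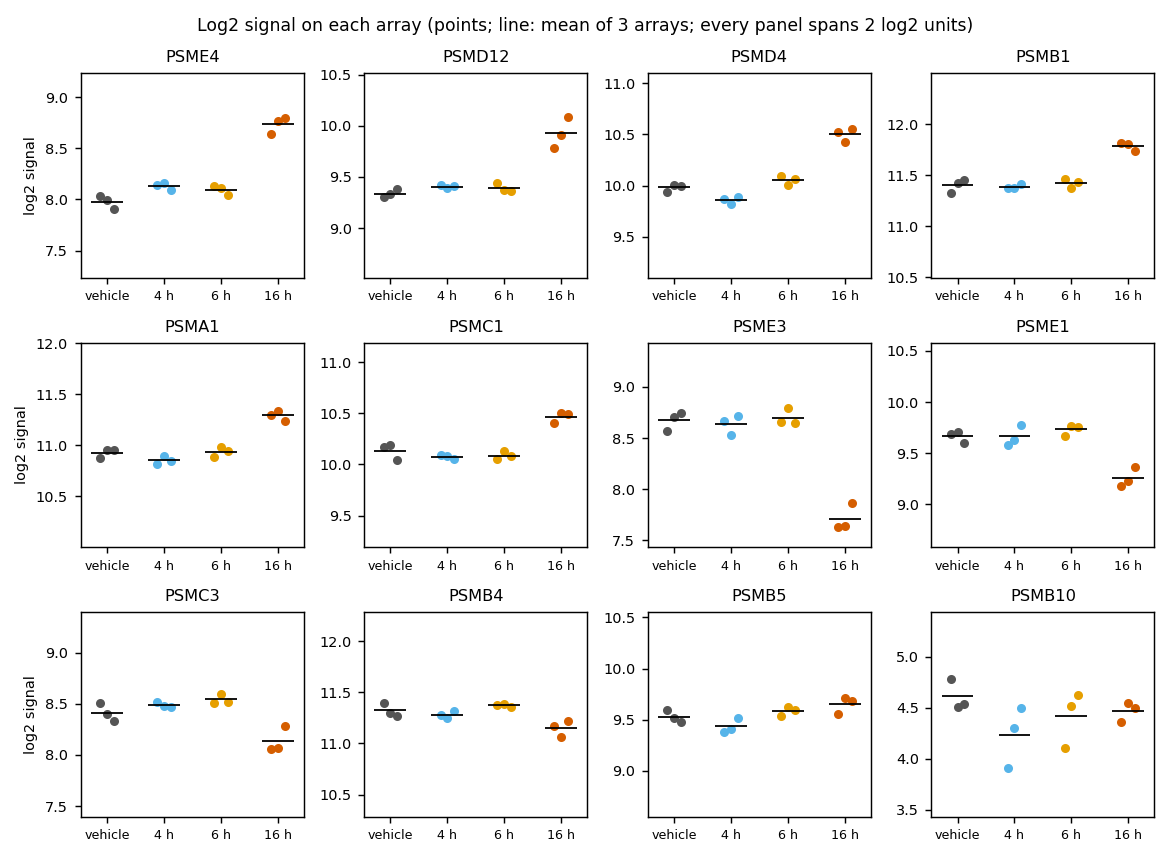
Log2 signal (y axis) of 12 proteasome genes on each array (points), by group (x axis), with the mean of 3 arrays as a line; every panel spans 2 log2 units. In the panels, arrays at 16 h lie above all others for PSME4, PSMD12, PSMD4, PSMB1, PSMA1 and PSMC1 and below all others for PSME3, PSME1, PSMC3 and PSMB4, while they overlap with vehicle for PSMB5 and PSMB10.

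Among the ATPases of the 19S base, which unfold the substrate and push it into the core, 3 of 5 rose (60%, against 26% of all genes) and 1 fell, with a median of 0.21. PSMC1 gave 10.17, 10.19 and 10.04 in vehicle, 10.09, 10.08 and 10.05 at 4 h, 10.05, 10.13 and 10.08 at 6 h, and 10.41, 10.50 and 10.49 at 16 h. Its 16 h arrays were the 3 highest, and it rose by 0.33 ± 0.06 (1.26-fold; adjusted p = 0.001, limma). PSMC6 gave 10.11, 10.07 and 10.24 in vehicle, 10.25, 10.24 and 10.30 at 4 h, 10.13, 10.17 and 10.21 at 6 h, and 10.44, 10.46 and 10.46 at 16 h. It rose by 0.31 ± 0.06 (adjusted p = 0.0015, limma), again with no overlap. PSMC3, an ATPase of the same ring, went the other way. It gave 8.51, 8.40 and 8.33 in vehicle, 8.52, 8.48 and 8.47 at 4 h, 8.51, 8.60 and 8.52 at 6 h, and 8.06, 8.07 and 8.28 at 16 h. The 16 h arrays were the 3 lowest, and the fall was -0.28 ± 0.07 (1.21-fold; adjusted p = 0.011, limma). PSMC2 rose by 0.20 on its brightest probe set but not on its others, as given with the second probe sets.

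Of the 9 non-ATPase subunits of the 19S base and lid, 4 rose (44.4%, against 26% of all genes) and 0 fell, with a median of 0.15. PSMD12, a scaffold subunit of the lid, gave 9.30, 9.33 and 9.38 in vehicle, 9.42, 9.39 and 9.41 at 4 h, 9.44, 9.37 and 9.36 at 6 h, and 9.78, 9.91 and 10.09 at 16 h. All 16 h arrays were above the other 9, and the rise was 0.59 ± 0.08 (1.5-fold, adjusted p = 8.3e-05, limma). The second probe set of PSMD12, 202353_s_at, changed by only 0.19 ± 0.09 at 16 h and was not called (adjusted p = 0.09, limma). PSMD4, a receptor for ubiquitin chains, gave 9.94, 10.01 and 10.00 in vehicle, 9.87, 9.82 and 9.89 at 4 h, 10.09, 10.01 and 10.06 at 6 h, and 10.52, 10.43 and 10.55 at 16 h. Its 4 h arrays were the 3 lowest and its 16 h arrays the 3 highest. The rise at 16 h was 0.52 ± 0.06 (1.43-fold; adjusted p = 2.9e-05, limma), and the difference at 4 h did not pass (-0.12, adjusted p = 0.47, limma). Further probe sets of PSMD4 changed less at 16 h: 211609_x_at rose by 0.21 ± 0.07 (adjusted p = 0.03, limma), and 210460_s_at (0.09) was not called.

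PSMD14, the enzyme that removes ubiquitin chains as the substrate enters, gave 9.86, 9.81 and 9.72 in vehicle, 9.78, 9.73 and 9.76 at 4 h, 9.81, 9.86 and 9.92 at 6 h, and 9.91, 10.05 and 10.12 at 16 h. The 16 h arrays lay above the vehicle arrays, and the lowest of them lay just below the highest 6 h array. It rose by 0.23 ± 0.07 (adjusted p = 0.018, limma), a call lost without vehicle array 3 (0.19), 16 h array 2 (0.22) or 16 h array 3 (0.19). PSMD2, a scaffold of the base, rose by 0.18 ± 0.06 (adjusted p = 0.034, limma), a call lost when any 1 of the 6 arrays other than 16 h array 2 was left out (0.15 to 0.20). PSMD8 (0.15), PSMD6 (0.14), PSMD1 (0.04), PSMD11 (-0.06) and PSMD3 (-0.07) did not pass.

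Of the 4 activator and inhibitor genes, 1 rose and 2 fell (75% called, against 42.8% of all genes). On the brightest probe sets they held both the largest rise and the largest fall of the 40 genes. PSME4, which encodes a large single-chain nuclear activator, gave 8.03, 7.99 and 7.91 in vehicle, 8.14, 8.16 and 8.09 at 4 h, 8.13, 8.11 and 8.04 at 6 h, and 8.64, 8.77 and 8.80 at 16 h. Every treated array was above the vehicle arrays, with those at 16 h clearly highest. The rise at 16 h was 0.76 ± 0.06 (1.7-fold; adjusted p = 3.3e-06, limma), and the change at 6 h did not pass (0.12, adjusted p = 0.68, limma). PSME3, which encodes a ring-shaped nuclear activator that works without ubiquitin, gave 8.57, 8.71 and 8.75 in vehicle, 8.67, 8.53 and 8.72 at 4 h, 8.66, 8.79 and 8.65 at 6 h, and 7.63, 7.64 and 7.87 at 16 h. At 16 h the arrays lay far below all others, which overlapped among themselves. The fall was -0.96 ± 0.09 (1.95-fold; adjusted p = 5.7e-06, limma). For both genes another probe set was called in the opposite direction, and as the mean of its probe sets neither passed (PSME4 0.01, adjusted p = 0.93; PSME3 -0.17, adjusted p = 0.056; limma).

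PSME1, which encodes a subunit of the interferon-inducible activator, gave 9.69, 9.71 and 9.60 in vehicle, 9.58, 9.63 and 9.78 at 4 h, 9.67, 9.77 and 9.76 at 6 h, and 9.18, 9.23 and 9.36 at 16 h. The 16 h arrays were the 3 lowest, and the fall was -0.41 ± 0.07 (1.33-fold; adjusted p = 0.00088, limma). PSMF1, which encodes an inhibitor of the core, gave 9.28, 9.35 and 9.27 in vehicle, 9.28, 9.36 and 9.53 at 4 h, 9.17, 9.51 and 9.36 at 6 h, and 9.52, 9.42 and 9.53 at 16 h. At 16 h the arrays were above vehicle but overlapped with 4 h and 6 h, and the change did not pass (0.19 ± 0.09; adjusted p = 0.11, limma).

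Of the 8 assembly factors, 2 rose (25%, close to the 26% of all genes) and 0 fell, with a median of 0.11. PSMG1, a chaperone of the alpha ring, gave 10.01, 10.16 and 10.16 in vehicle, 10.15, 10.18 and 10.16 at 4 h, 10.16, 10.18 and 10.22 at 6 h, and 10.33, 10.40 and 10.35 at 16 h. The 16 h arrays were the 3 highest, and it rose by 0.25 ± 0.06 (1.19-fold; adjusted p = 0.0055, limma). POMP, which helps the beta ring to form and is degraded by the finished core, gave 11.10, 11.11 and 11.12 in vehicle, 11.15, 11.10 and 11.10 at 4 h, 11.10, 11.11 and 11.16 at 6 h, and 11.30, 11.30 and 11.24 at 16 h. These were again the 3 highest arrays, and the rise was 0.17 ± 0.05 (1.13-fold; adjusted p = 0.021, limma), a call lost without vehicle array 1 (0.17), vehicle array 2 (0.17) or 16 h array 2 (0.16). PSMG1's partner PSMG2 (-0.04), PSMG3 (0.14), PSMG4 (0.05) and the 19S chaperone genes PSMD5 (0.21), PSMD9 (-0.07) and PSMD10 (0.08) did not pass.

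**Figure D3:**
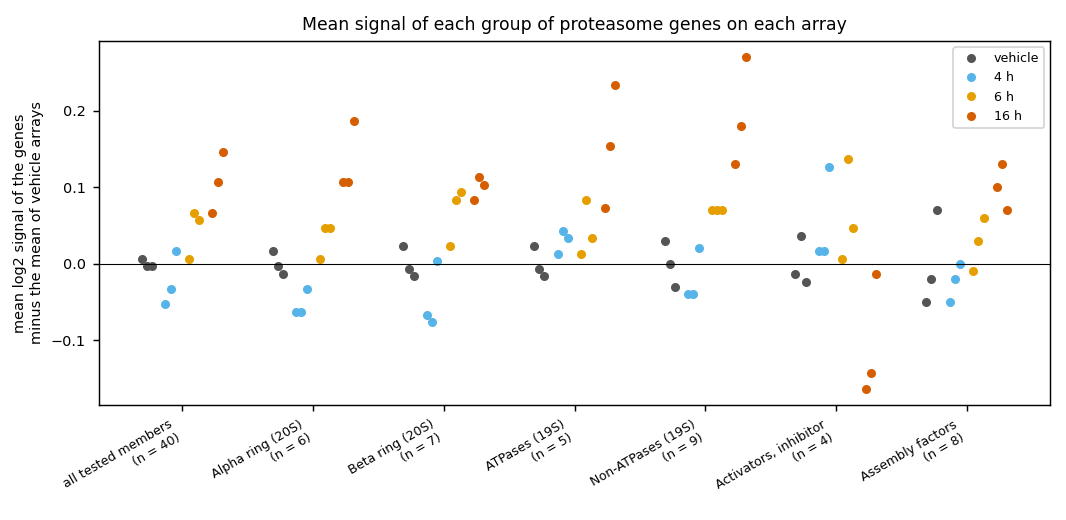
Mean log2 signal of the tested genes of each role on each array, minus the mean of the vehicle arrays (y axis), by role (x axis, with the number of genes); points are arrays. The group mean is highest at 16 h for the rings, the 19S particle and the assembly factors, and lowest at 16 h for the activators and inhibitor, where PSME4 (0.76) and PSME3 (-0.96) moved in opposite directions; single arrays at 16 h overlap with another group for the beta ring, the ATPases, the assembly factors, the activators and the 40 genes together.

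Between treatment times, 6 h against 4 h gave 0 risen and 0 fallen by limma (0.095% of all genes called). The largest differences were PSMD4 (0.19 ± 0.06, adjusted p = 0.35, limma) and PSMB10 (0.18 ± 0.16, adjusted p = 0.73) upwards and PSMC6 (-0.09, adjusted p = 0.66) and PSMF1 (-0.04, adjusted p = 0.91) downwards. Against 4 h, 17 genes were higher and 3 lower at 16 h, beside 24.8% and 16.1% of all genes (40.9% called). Against 6 h, 10 were higher and 5 lower, beside 25.1% and 17.6% of all genes (42.7% called). PSME3 was lower at 16 h than at 4 h (-0.93 ± 0.09, adjusted p = 9.4e-06, limma) and than at 6 h (-0.99 ± 0.09, adjusted p = 5.1e-06, limma), and so was PSME1 (-0.40 and -0.47). PSME4 was higher at 16 h than at 4 h (0.61 ± 0.06) and at 6 h (0.64 ± 0.06), PSMD4 differed most from 4 h upwards (0.64 ± 0.06, adjusted p = 7e-06, limma), and PSMD12 was 0.54 ± 0.08 above 6 h. These values are of the brightest probe sets. For PSME3, 200987_x_at was higher at 16 h than at 4 h (0.39) and at 6 h (0.33), and 209853_s_at was higher than at 4 h (0.38). For PSMC2, 201067_at was lower than at 4 h (-0.51) and at 6 h (-0.52), while 201068_s_at was higher than both (0.17 each). These comparisons share the 16 h arrays.

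Many proteasome genes have several probe sets, and these did not all move together. In a fit over 22708 named probe sets, 24 of 71 proteasome probe sets rose at 16 h (33.8%, against 23.3% of all) and 7 fell (9.86%, against 18%), and limma called 0 at 4 h (0.405% of all) and 0 at 6 h (0.92% of all). Of the 31 tested beyond each gene's brightest, 9 rose and 4 fell. For PSMA1, PSMA3, PSMB1, PSMD4 and POMP at least 1 further probe set rose as well. That of PSMA3, 237300_at, went from 2.21 to 2.6, close to the filter of 2.11. Other probe sets of PSMA1 (210759_s_at, 0.15) and PSMD4 (210460_s_at, 0.09) were not called. The second of POMP rose from 6.97 to 7.53 (0.56 ± 0.08, adjusted p = 0.00024, limma). PSMB4 had no probe set called in this fit.

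In 3 of 20 genes with several tested probe sets, calls went in both directions. PSME4 rose on 2 probe sets (212219_at, 0.76; 212222_at, 0.43) and fell on 212220_at. That one gave 5.28, 4.67 and 5.02 in vehicle, 4.80, 3.83 and 4.20 at 4 h, 4.26, 3.88 and 3.86 at 6 h, and 4.09, 3.36 and 4.05 at 16 h, so the 6 h arrays were already below vehicle, and the fall at 16 h was -1.16 ± 0.26 (adjusted p = 0.0035, limma). PSME3 fell on 209852_x_at (-0.96) and rose on 200987_x_at (0.27 ± 0.10, adjusted p = 0.047, limma), with 200988_s_at (-0.14) and 209853_s_at (0.14) not called. PSMC2 rose on 201068_s_at (0.20) and fell on 201067_at (-0.56 ± 0.07, adjusted p = 1e-04, limma), where the arrays went from 9.81, 9.76 and 9.67 to 9.10, 9.15 and 9.32. For these 3 genes the arrays give no single direction for the gene.

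Further probe sets of genes whose brightest one was not called also moved. PSMD1 fell on 201198_s_at (-0.40, adjusted p = 0.00092, limma) and PSMD10 on 1554577_a_at (-0.27, adjusted p = 0.027, limma). PSMF1 rose on 236012_at from 3.15 to 4.12 (0.97 ± 0.14) and PSMG4 on 242055_at from 2.53 to 3.56 (1.03 ± 0.23), both at signals not far above the filter. The positions of these probe sets within the transcripts were not analysed here.

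**Figure D4:**
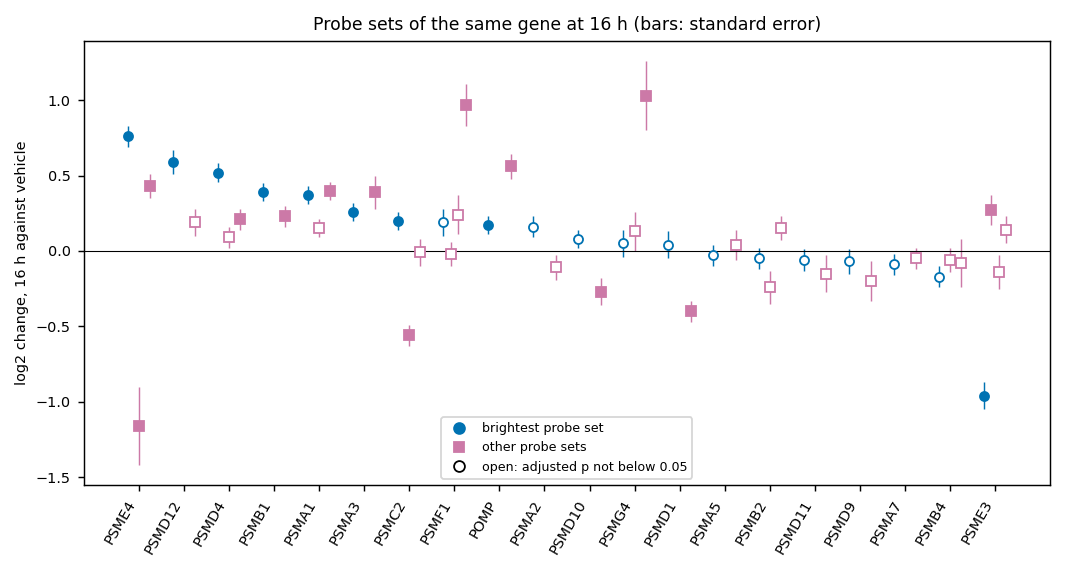
Log2 change at 16 h against vehicle (y axis; bars are standard errors) of every tested probe set of the 20 proteasome genes that have more than 1 (x axis); circles are the brightest and squares the other probe sets, filled where the test was passed. PSME4, PSMC2 and PSME3 have filled points on both sides of 0.

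Genes that act with the proteasome were taken from 4 lists outside the symbol rule. Of 12 proteasome-associated proteins, 8 rose at 16 h and 0 fell, with a median of 0.35, against 26% risen among all genes and 0.15 as the median of the subunit genes. ZFAND5, which stimulates the 26S proteasome, rose by 1.24 ± 0.06 and its arsenite-inducible relative ZFAND2A by 0.85. AKIRIN2, which carries proteasomes into the nucleus, rose by 1.13, and ECPAS, which binds the assembled complex, by 0.52 on its brightest probe set but not as the mean of its probe sets (0.11). SEM1, the small lid subunit, rose by 0.17 (adjusted p = 0.027, limma), a call lost when any 1 of the 6 arrays other than vehicle array 1 was left out (0.16 to 0.18). ADRM1, a ubiquitin receptor (0.08), and USP14, a deubiquitinase on the base (0.00), did not pass.

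NFE2L1 and NFE2L2 are the transcription factors known to act on the subunit genes. Of 11 tested genes around them, 8 rose at 16 h (72.7%, against 26% of all genes) and 0 fell, with a median of 0.66. NFE2L1 gave 8.51, 8.48 and 8.49 in vehicle, 8.46, 8.42 and 8.39 at 4 h, 8.53, 8.53 and 8.53 at 6 h, and 9.44, 9.29 and 9.40 at 16 h. The 4 h arrays lay below all vehicle arrays and the 6 h arrays above them. Neither change passed (-0.07, adjusted p = 0.70 at 4 h, and 0.04, adjusted p = 0.90 at 6 h, limma). NFE2L1 rose at 16 h by 0.89 ± 0.06 (adjusted p = 3.6e-07, limma). NFE2L2 rose by 0.66, though not as the mean of its probe sets (0.15, adjusted p = 0.13), and NFE2L3 did not pass (-0.11). MAFF, a small MAF partner, rose at 4 h by 1.01 ± 0.09 (adjusted p = 0.00038, limma), the one gene of the 4 lists to do so. At 6 h none of the 11 genes was called (0.0317% of all genes), with changes from vehicle of at most 0.4. At 16 h MAFF rose by 2.50. BACH1, a repressor at the same elements, rose by 0.72 and FBXW7, of a ubiquitin ligase that targets NFE2L1, by 1.00. DDI2, the protease that activates NFE2L1, was not analysed here.

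Of 12 genes of ubiquitin and its delivery, 5 rose and 2 fell at 16 h, so 58.3% were called against 42.8% of all genes, with a median of 0.15. SQSTM1, an autophagy receptor for ubiquitinated proteins, rose by 1.25 ± 0.09, but not on its brightest probe set outside the _s_at and _x_at classes, whose probes can match several transcripts (0.10), and NPLOC4, a cofactor of the VCP segregase, rose by 0.41. UBA1, the main ubiquitin-activating enzyme, fell by 0.62 (adjusted p = 1.3e-05, limma). RAD23B, a shuttle for ubiquitinated substrates, fell by 0.31, with 0.08 on its brightest probe set outside those classes. Of 9 antigen-processing genes, which act on the peptides that the proteasome makes, 6 rose (66.7%, against 26% of all genes) and 0 fell, among them HLA-C (0.72), IRF1 (0.66), TAP2 (0.47) and TAP1 (0.43). TAP1 lost its call without vehicle array 2 (0.36), vehicle array 3 (0.39), 16 h array 2 (0.36) or 16 h array 3 (0.38), and TAP2 without vehicle array 1 (0.41), vehicle array 2 (0.44) or 16 h array 3 (0.42). Of the interferon-inducible proteasome genes, PSMB10 did not pass and PSME1 fell, while PSMB8 and PSMB9 were not tested. The difference from the antigen-processing genes was not tested.

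**Figure D5:**
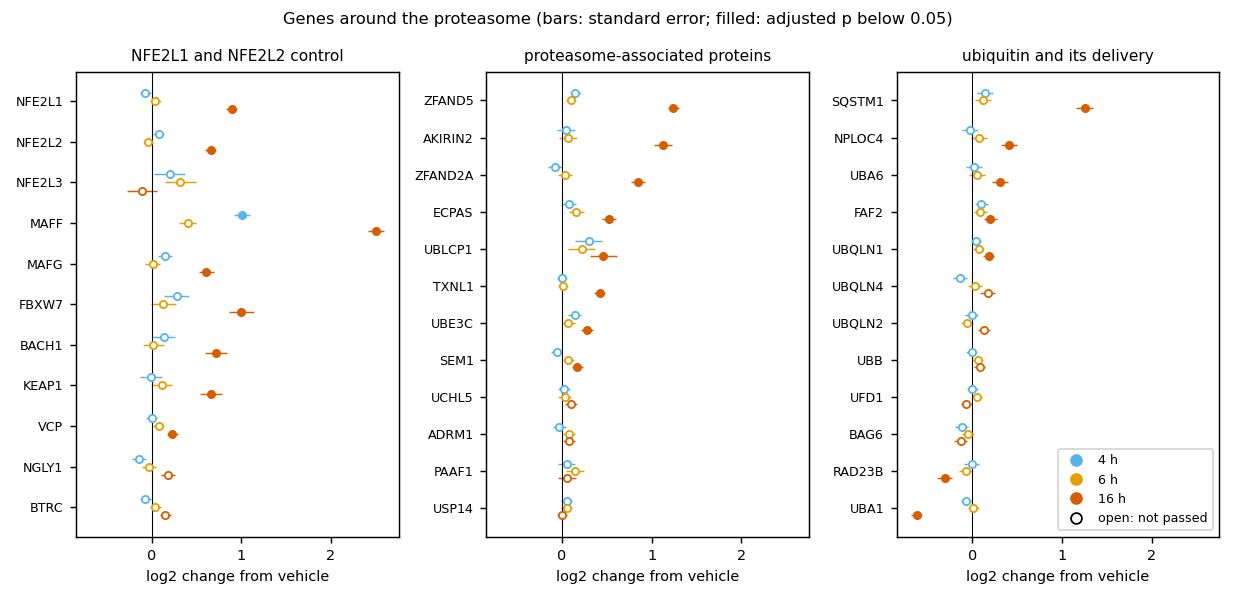
Log2 change from vehicle (x axis; bars are standard errors) of genes of 3 lists around the proteasome (y axis) at 4 h, 6 h and 16 h; filled points passed the test. At 4 h MAFF (1.01) is the only filled point, while 8 of 11 control genes, 8 of 12 associated proteins and 7 of 12 ubiquitin genes are filled at 16 h.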

How the data were processed

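Total RNA of 22Rv1 cells was hybridised to 12 Affymetrix U133 Plus 2.0 arrays, per the labels' protocols. The authors deposited 1 table of log2 signals per probe set, made with GCRMA per the submitters' processing notes; its version is not given in the sources used here. The deposited values run from -0.49 to 13.77 and were used as deposited, without further normalization. The number of arrays, 3 per group, limits the precision. Probe sets were named from the platform annotation: 41091 have 1 gene symbol, 1801 several, 11721 none and 62 are controls.

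The 4 groups were fitted together with limma 3.58.1 (lmFit and eBayes) in R 4.3.3, with 8 residual and 3.69 prior degrees of freedom. A gene was its brightest probe set by the mean over 12 arrays. The test was two-sided, with Benjamini-Hochberg adjustment over the 12635 genes whose mean reached 2.11, the median of all probe sets. A fit over 22708 named probe sets above the same value served for second probe sets. ± is the SE of the model unless SD is given. On simulated data for 16 h against vehicle (12635 genes, 200 changed in each of 10 runs), 75.5% of changes of 0.5 log2 units and 99.6% of changes of 1 were recovered, and 5.23% of calls were false. Far more genes were called at 16 h (42.8%) than were changed in the simulation, so these shares need not hold there.

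Genes named in full are the 6 largest rises and falls among those called at 16 h, those with the 2 largest differences each way between treatment times, and a fixed set of catalytic, assembly and regulatory genes; from each outside list, up to 4 with the largest changes among those called. The members, lists and tests were chosen with earlier results of these data known. Alternatives covered normalization, centring, the filter, the choice of probe set, the variance prior, array weights, the 2 groups alone, the replicate number as a block, and leaving out each array.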

Additional observations from a re-analysis of the deposited data

Results flagged for a closer look

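The effect on a gene differed between treatment times where the 16 h arrays were tested directly against the 4 h or 6 h arrays (limma, Benjamini-Hochberg adjusted p below 0.05, 3 arrays per group). Each value here is such a log2 difference on the gene's brightest probe set. The same 16 h arrays enter both comparisons.

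Of the core genes, 6 of 13 were called between 16 h and 4 h (46.2%, near the 40.9% of all tested genes), all of them higher at 16 h: PSMA1 by 0.44, PSMA3 by 0.21, PSMB1 by 0.40, PSMB5 by 0.21, PSMB6 by 0.31 and PSMB7 by 0.32, with the assembly factor POMP at 0.17. PSMB5, not called against vehicle, was called here. Between 16 h and 6 h PSMA1 differed by 0.36, PSMB1 by 0.37 and POMP by 0.16, while PSMB3 (-0.19) and PSMB4 (-0.22) were lower at 16 h. Of the 13 core genes, 30.8% were called between 16 h and 6 h, against 42.7% of all genes.

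Of the 19S genes, PSMC1 (0.39), PSMC2 (0.17), PSMC6 (0.19), PSMD2 (0.28), PSMD4 (0.64), PSMD12 (0.52) and PSMD14 (0.27) were higher at 16 h than at 4 h, as was the 19S chaperone gene PSMD5 (0.27), and PSMC3 was lower (-0.35). Leaving out PSMD5, that makes 8 of 14 genes of the 19S particle (57.1% called, against 40.9% of all). Between 16 h and 6 h, PSMC1 (0.38), PSMC2 (0.17, with its probe set 201067_at lower at -0.52), PSMC6 (0.28), PSMD4 (0.45) and PSMD12 (0.54) were higher and PSMC3 was lower (-0.41). That is 42.9% of the 14 genes of the 19S particle, near the 42.7% of all genes.

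Of the activators, PSME4 was higher at 16 h than at 4 h (0.61) and 6 h (0.64). PSME3 was lower than at 4 h (-0.93) and 6 h (-0.99), and so was PSME1 (-0.40 and -0.47). Other probe sets of PSME3 were higher at 16 h: 200987_x_at than at 4 h (0.39) and 6 h (0.33), and 209853_s_at than at 4 h (0.38). The alpha ring chaperone PSMG1 was higher than at 4 h (0.20) and 6 h (0.17).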

How the results depend on the processing

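Of 204 counts of risen or fallen proteasome genes under 17 alternatives, 199 lay within 1.5 times the reported count. These include the counts of the comparisons without 16 h, reported as 0, where at most 0.459% of all genes were called. The 5 counts that moved further are all of comparisons with 16 h. With every named probe set tested, 7 fell at 16 h against vehicle, 6 against 4 h and 8 against 6 h. With genes taken from classes other than _s_at and _x_at (the shared ones), 5 were lower at 16 h than at 4 h, and with a trended, robust prior 16 were higher at 16 h than at 6 h. Leaving out 1 array at a time gave 12 to 16 risen and 3 to 4 fallen at 16 h against vehicle, 12 to 18 and 3 to 3 against 4 h, 8 to 12 and 4 to 6 against 6 h, and 0 to 0 in the other comparisons. The main fit did not pair the arrays by replicate number. Of same-number pairs, 5 of 18 had deviations correlated above 0.1, against 4 of 36 with different numbers. The same-number correlations ran from 0 to 0.24, so some likeness between arrays of the same number was present. With the replicate number as a block, 15 rose and 4 fell at 16 h against vehicle, 17 and 3 differed from 4 h, 12 and 5 from 6 h, and 0 in the other comparisons.

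Of 6174 gene values, 142 lost and 77 gained a call and 16, of 7 genes, changed sign. As the mean of its probe sets, PSMC2 was -0.12 at 16 h against vehicle, -0.14 against 4 h and -0.049 against 6 h, and outside the shared classes -0.56, -0.51 and -0.52. PSMD10 outside those classes was -0.27, -0.31 and -0.32, and RAD23B 0.081, 0.012 and 0.026. PSMD1 as a mean was -0.18 against vehicle, PSMB4 as a mean 0.032 and USP14 as a mean 0.13 against 6 h, and SQSTM1 outside the shared classes -0.06 against 4 h. The cause was not tested. Of 19 called genes, 10 (8 risen, 2 fallen) kept the call in each of the 16 or 17 alternatives that gave a value. Among these 10, PSMC1, PSMC3, PSMC6, PSME1 and PSMG1 have no second probe set here, so the choice of probe set could not change their values. PSMA1 and PSMD12 have only probe sets of the shared classes, so leaving those classes out returned the same probe set. For these genes the count is no test of that choice. The change was under 0.5 log2 units in 15 of the 19. Some of these kept the call throughout, such as PSMB1 (0.39) and PSMA1 (0.37). Others did not, such as PSMB4 (-0.17) and PSMD2 (0.18), which each lost it in 9 of 17 alternatives.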
